A study of Mus musculus with 8 samples.

Results

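The guanylate-binding proteins (GBPs) and immunity-related GTPases (IRGs) were followed in mouse lung through 10 genes, chosen by symbol from 24584 genes in the table. There were 6 GBP genes (Gbp2, Gbp3, Gbp4, Gbp5, Gbp6 and Gbp7) and 4 IRG genes (Irgm1, Irgm2, Igtp and Ifi47), and all 10 passed the filter on low counts. Lung RNA had been sequenced from 4 mice given LPS and from 4 mice given tangeretin before LPS (LPS + Tan). Tangeretin is a polymethoxylated flavone of citrus peel, and LPS is the bacterial cell wall component used here to bring on acute lung injury. The mice were male ICR animals, an outbred stock, of 6 to 8 weeks, entered as wild type. Both groups received LPS at 5 mg/kg into the peritoneum, the LPS + Tan group received tangeretin at 50 mg/kg by the same route 30 min earlier, and lungs were taken 12 h after LPS. No untreated lung and no lung given tangeretin alone was analysed here, so the level of these genes before LPS is not known from these values.

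GBPs and IRGs are large GTPases that interferons, and interferon-gamma above all, switch on in most cell types. GBPs assemble on the membranes of bacteria and on the vacuoles that hold parasites, where they help to open them and expose their contents, LPS included, to caspase-11 and other sensors. The effector IRGs attack the same vacuoles, and the regulatory IRGs of the Irgm group (Irgm1, Irgm2 and Igtp, also called Irgm3) sit on the cell's own membranes and hold the effectors inactive there. Transcription of both families runs from interferon receptors through JAK kinases to transcription factors that bind the GAS element and to others, IRF1 among them, that bind the ISRE.

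The stretches around the ISRE core of the promoters are shown first because most members with a promoter sequence at hand have this motif. RefSeq promoters (GRCm38.p6, from 250 bases before to 50 bases after a start) were found for 8 of the 10 genes, all but Gbp4 and Gbp6. The ISRE core, searched as GAAANNGAAA on both strands, stood in the promoters of 7 of the 8, all but Ifi47, and in 3.44% of 32851 promoter windows of the genome. The GAS element, searched as TTCNNNGAA, a motif that reads alike on both strands, stood in 4 of the 8 (Gbp5, Gbp7, Igtp and Irgm2) and in 8.30% of all windows. The same 4 genes held both motifs, as did 0.454% of all windows. Each sequence is given 5′ to 3′ on the strand of its gene, with the matches in capitals.
Gbp2: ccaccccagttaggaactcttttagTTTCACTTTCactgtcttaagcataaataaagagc
Gbp3: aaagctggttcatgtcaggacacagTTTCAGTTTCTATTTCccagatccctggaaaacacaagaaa
Gbp5: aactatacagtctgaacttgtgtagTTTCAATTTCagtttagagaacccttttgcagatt
Gbp7: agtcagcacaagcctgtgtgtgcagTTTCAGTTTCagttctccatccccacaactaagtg
Igtp: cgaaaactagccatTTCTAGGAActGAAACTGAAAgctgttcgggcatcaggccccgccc
Irgm1: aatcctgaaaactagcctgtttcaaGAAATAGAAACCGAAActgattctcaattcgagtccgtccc
Irgm2: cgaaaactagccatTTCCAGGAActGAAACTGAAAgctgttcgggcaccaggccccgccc

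The core was read on the strand opposite to the gene in the 4 GBPs and on the strand of the gene in the 3 IRGs. It began at -59 from the start in Gbp2 (stretch at chr3:142620579-142620638, plus strand), at -165 in Gbp5 (chr3:142496744-142496803, plus), at -53 in Gbp7 (chr3:142530258-142530317, plus), at -34 in Igtp (chr11:58199497-58199556, plus) and at -64 in Irgm2 (chr11:58214888-58214947, plus). Gbp3 (chr3:142559974-142560039, plus) and Irgm1 (chr11:48871410-48871475, minus) each held 2 overlapping cores, the first at -45 and at -30. In Igtp and Irgm2, which are neighbours, a GAS element stood just before the ISRE core inside the stretch shown. A match in letters is not evidence that a factor was bound there, and no binding was measured in these lungs.

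The 10 genes lie on 3 chromosomes. Gbp5, Gbp7, Gbp3 and Gbp2 lie between 142496934 and 142638008 on chromosome 3, Gbp4 and Gbp6 between 105115767 and 105295871 on chromosome 5, and the 4 IRG genes on chromosome 11, with Irgm1 and Ifi47 between 48865245 and 49096987 and Igtp and Irgm2 between 58199556 and 58222783 (GRCm38.p6). Near-identical copies limit a few of them. In Gbp6, 82.9% of the 100-base windows of its transcripts also occur in other genes, among them Gbp10 and Gm43302, so its count is uncertain where the counting could split or drop shared reads. The share was 10.01% for Gbp7, 5.16% for Igtp and at most 3.01% for each of the others, with 0% for Gbp2, Gbp5 and Irgm1.

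Together these genes took 0.9998% ± 0.126 (SD, n = 4) of all reads counted on genes in the LPS group, and each held between 6422 and 110807 reads in every library. Their rank among all genes was not determined. Libraries held 38895654 to 39931970 counted reads, so the spread between mice and not the depth set the precision. Per length, in FPKM, Gbp2 stood highest in the LPS group at 792 ± 87.5 (SD, n = 4), above every sample of Gbp5 at 437 ± 36.0. Gbp4 at 389 ± 120 and Igtp at 378 ± 47.4 followed and overlapped with Gbp5 and with each other. Ifi47 (261), Irgm1 (243), Gbp7 (191), Irgm2 (190) and Gbp3 (184) came next, each overlapping its neighbour in this order, and Gbp6 stood lowest at 83.7 ± 23.4. Igtp lay above every sample of Ifi47, and Gbp3 above every sample of Gbp6.

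The comparison of LPS + Tan with LPS asked what tangeretin pretreatment did to these genes in the injured lung. In 3 of the 4 LPS + Tan lungs (replicates 1 to 3), the mean level of each of the 10 genes was between 30.1% and 56.9% of the mean of the LPS group, and in replicate 4 the level of 9 of the 10 stood above the LPS mean. LPS + Tan replicate 4 was the highest of the 8 lungs in 8 genes and the highest of its own group in 10, against 20.2% and 30.4% of all tested genes. LPS + Tan replicate 1 was the lowest of the 8 lungs in all 10. The share of counted reads taken by the 10 genes was 0.837% to 1.14% in the LPS group, and in LPS + Tan replicates 1 to 4 it was 0.347%, 0.552%, 0.502% and 1.25%. The mean of the LPS + Tan group was 0.662% ± 0.400 (SD, n = 4), and 0.467% ± 0.107 (SD, n = 3) without replicate 4. The labels place replicate 4 in the LPS + Tan group, and no value in the tables checks whether a lung received tangeretin. Replicate 4 was set apart after its values had been seen, and each fold change below is given with it and without it. Since it was the highest of its group in all 10 genes, p-values and counts without it depend on that choice. They describe the remaining lungs and are not independent tests of tangeretin. The shares over all genes beside them were not chosen in this way.

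**Figure D1:**
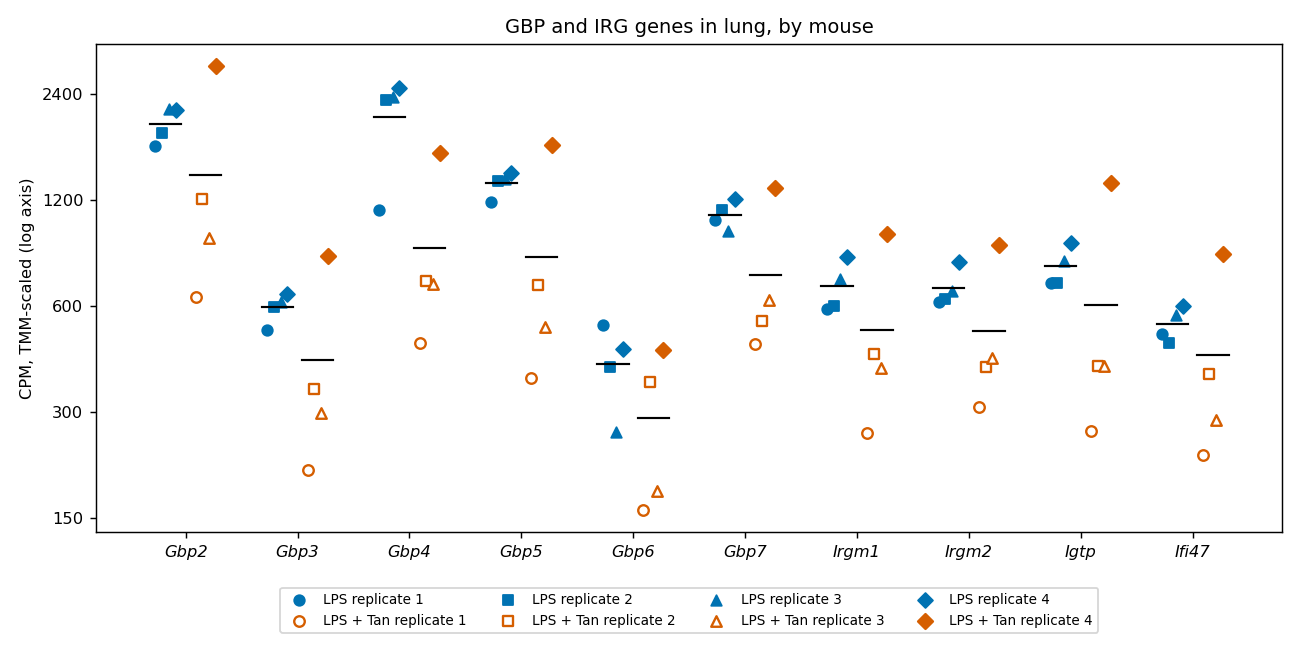
Level of each GBP and IRG gene in each lung, in CPM (read counts scaled to the size of the library, with TMM factors) on a log axis, with filled blue symbols for the LPS group, orange symbols for the LPS + Tan group and a black line at each group mean. Open orange symbols (LPS + Tan replicates 1 to 3) lie below all blue ones in 9 of 10 genes, whereas the filled orange diamond (replicate 4) lies above all blue ones in 8.

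With all 8 lungs, the fitted log2 fold change was below 0 in 10 of 10 genes, with a median of -0.49 against 0.0070 over all tested genes. By edgeR's quasi-likelihood test 1 of the 10, Gbp4, passed an unadjusted p of 0.05 in the lower direction, as did 2.25% of all 15706 tested genes. None (0 of 10) passed an adjusted p of 0.05, which 0% of all genes did, and DESeq2 gave 2 of 10 lower at the unadjusted threshold (Gbp4 and Gbp7) against 2.08% of 24558 genes and 0 of 10 at the adjusted one against 0.123% of the 15507 genes to which it gave an adjusted p. In none (0 of 10) did the LPS + Tan lungs all lie below the LPS lungs, a pattern of 1.15% of all genes.

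Without LPS + Tan replicate 4, the median was -1.03 against 0.0064 over all genes, and 10 of 10 passed an unadjusted p of 0.05 in the lower direction, against 4.56% of 15932 genes. In 9 of 10, all but Gbp6, the 3 LPS + Tan lungs lay below all 4 LPS lungs, against 4.59% of all genes. The quasi-likelihood test still called 0 of 10 at an adjusted p of 0.05, with a lowest adjusted p of 0.0782, and called 1 gene in all (0.00628%), Cxcl10. For the same 7 lungs, DESeq2 called 9 of 10 lower at that threshold against 1.01% of the 16806 genes to which it gave an adjusted p, and edgeR's likelihood ratio test called 9 of 10 against 0.734% of 15932 genes, with Gbp6 missed by both. The adjusted call on these genes therefore differed between tests once replicate 4 was left out. Leaving out LPS + Tan replicate 1, the lowest lung, instead gave a median of -0.25, and single values between -1.03 in Gbp4 and -0.08 in Ifi47 (-0.12 in Igtp). Gbp4 was then the 1 gene of 10 past the unadjusted threshold in the lower direction, against 1.33% of 15895 genes. In whole lung, fewer cells that make these messages and less message per cell cannot be told apart.

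**Figure D2:**
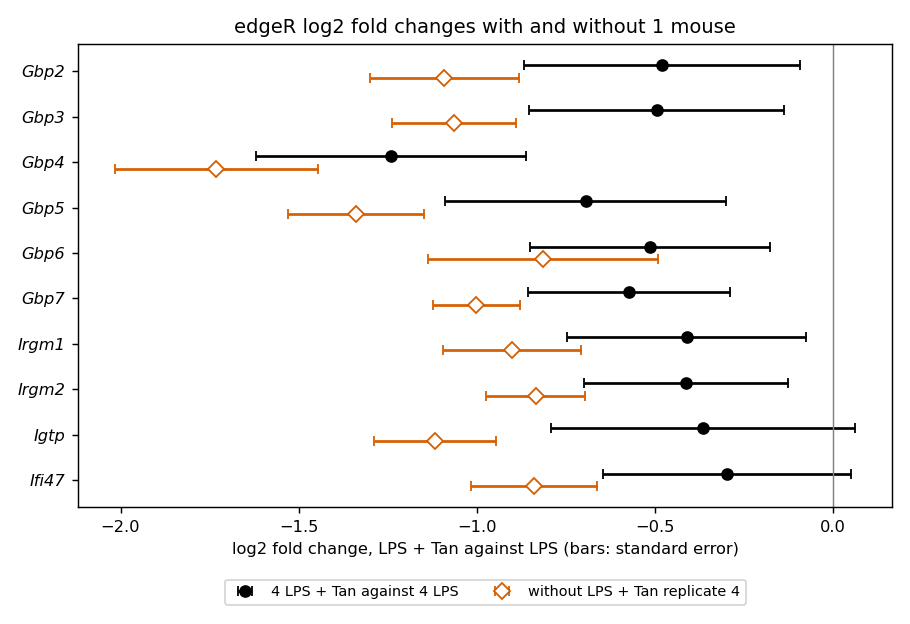
Log2 fold change of LPS + Tan against LPS for each gene from edgeR, with bars of 1 standard error, for all 8 lungs (black circles) and without LPS + Tan replicate 4 (open orange diamonds). All 20 values lie below 0, and the median moves from -0.49 to -1.03 when replicate 4 is left out.

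Gbp4 showed the lowest fold change of the 10. Its CPM was 1122, 2304, 2348 and 2492 in the LPS lungs and 469, 707, 692 and 1631 in the LPS + Tan lungs. LPS replicate 1 stood far below the other LPS lungs and below LPS + Tan replicate 4, so the groups overlapped. The means were 2067 ± 635 and 875 ± 515 (SD, n = 4 each), and the log2 fold change was -1.24 (SE 0.38, adjusted p = 0.924 by edgeR). It was -1.73 (SE 0.28, adjusted p = 0.114) without LPS + Tan replicate 4. Gbp4 was the only GBP or IRG member in which replicate 4 stayed below the LPS mean, at 0.789 times it.

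Gbp5, which promotes inflammasome assembly and gathers on membranes through its lipid anchor, had a CPM of 1186, 1361, 1377 and 1429 in the LPS lungs and of 375, 690.2, 521 and 1724 in the LPS + Tan lungs. The LPS values lay close together, and the LPS + Tan values lay on both sides of them. The log2 fold change was -0.69 (SE 0.39, adjusted p = 0.926), and -1.34 (SE 0.19, adjusted p = 0.0782) without replicate 4.

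Gbp2, the lipid-anchored GBP that coats parasite vacuoles and bacteria and the most abundant of the 10 per length in the LPS group, though below Gbp4 in mean CPM, had a CPM of 1703, 1859, 2173 and 2168 under LPS and of 634, 1211, 937 and 2880.2 under LPS + Tan. LPS + Tan replicate 4 was above every LPS lung and the other 3 were below every one. The log2 fold change was -0.48 (SE 0.39, adjusted p = 0.940), and -1.09 (SE 0.21, adjusted p = 0.170) without replicate 4.

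Gbp3 and Gbp7, neighbours of Gbp2 on chromosome 3, also had LPS + Tan replicates 1 to 3 below every LPS lung and replicate 4 above every one. Gbp7, which acts in delivery of oxidase and autophagy components to bacterial vacuoles, had a CPM of 1049.8, 1126, 981 and 1207 in the LPS group and of 469, 544, 623 and 1301 in the LPS + Tan group. The log2 fold change of Gbp7 was -0.57 (SE 0.28, adjusted p = 0.924), and -1.001 (SE 0.12, adjusted p = 0.0782) without replicate 4. The 3 low LPS + Tan lungs of Gbp7 lay close together and well apart from the LPS lungs. Gbp3 had a CPM of 512, 596, 617 and 649.7 against 205, 349, 298 and 833, with a log2 fold change of -0.49 (SE 0.36, adjusted p = 0.936). Without replicate 4 it was -1.06 (SE 0.17, adjusted p = 0.114).

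Gbp6 followed another order among the LPS lungs. It had a CPM of 528, 402, 263 and 452 in the LPS group and of 158, 366, 178 and 449.7 in the LPS + Tan group. The groups overlapped with and without replicate 4, and LPS replicate 1, not LPS + Tan replicate 4, was the highest lung. The log2 fold change was -0.51 (SE 0.34, adjusted p = 0.930), and -0.81 (SE 0.32, adjusted p = 0.489) without replicate 4. As given above, most of its sequence is shared with other GBP genes.

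Igtp is the regulatory IRG also known as Irgm3. Its CPM was 698, 699, 806 and 906 in the LPS lungs and 264, 405, 405 and 1340.3 in the LPS + Tan lungs, so that replicate 4 was at 1.72 times the LPS mean, the highest ratio of the 10 genes. Ifi47 followed at 1.58 times, and Gbp8, a GBP gene outside the 10, stood at 3.46 times. The log2 fold change of Igtp was -0.36 (SE 0.43, adjusted p = 0.972), and -1.12 (SE 0.17, adjusted p = 0.0961) without replicate 4.

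Irgm1 and Irgm2 are the other two regulatory members. Irgm1, which keeps interferon-treated cells and their mitochondria and lysosomes intact, had a CPM of 588, 598, 717 and 827 under LPS and of 261, 437, 399.7 and 957 under LPS + Tan. Its log2 fold change was -0.41 (SE 0.33, adjusted p = 0.940), and -0.90 (SE 0.19, adjusted p = 0.214) without replicate 4. As in Gbp2, LPS + Tan replicate 4 was the highest lung of both genes. Irgm2, which restrains activation of caspase-11 by LPS, had a CPM of 617, 627, 662 and 799 against 309, 402, 427 and 896. Its log2 fold change was -0.41 (SE 0.29, adjusted p = 0.933), and -0.83 (SE 0.14, adjusted p = 0.114) without replicate 4.

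Ifi47 (Irgd), an IRG without an ISRE core in its promoter window, had a CPM of 500.5, 470.1, 566 and 601 in the LPS group and of 227, 385, 284 and 844 in the LPS + Tan group. As in the members with the core, LPS + Tan replicates 1 to 3 lay below every LPS lung and replicate 4 above every one. Its log2 fold change was -0.30 (SE 0.35, adjusted p = 0.972), and -0.84 (SE 0.18, adjusted p = 0.196) without replicate 4. By chromosome, the median log2 fold change was -0.53 on chromosome 3, -0.88 on chromosome 5 and -0.39 on chromosome 11, and -1.08, -1.27 and -0.87 without replicate 4. These medians cover 4, 2 and 4 genes and the differences between them were not tested.

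The rest of the GTPase families gave 17 further tested genes. Of these, 16 were below 0 in log2 fold change, with a median of -0.46, and 1 passed an unadjusted p of 0.05 in the lower direction, against 2.25% of all genes. Without LPS + Tan replicate 4 all 17 were below 0, with a median of -1.02, and 13 passed the unadjusted threshold, against 4.56% of all genes. These 2 shares, 2.25% with all lungs and 4.56% without replicate 4, are the background of the list counts of lower genes that follow. Counts given without a direction are of lower genes. In the higher direction, 451 of 15706 tested genes passed with all lungs and 761 of 15932 without replicate 4. The 1 gene of these families past the threshold with all lungs was F830016B08Rik, an IRG-like GTPase, at 163, 215, 217 and 285 CPM in the LPS lungs and 83.2, 133, 131 and 122 CPM in the LPS + Tan lungs. Here all 4 LPS + Tan lungs, replicate 4 included, lay below the LPS lungs (log2 fold change -0.90, SE 0.19, adjusted p = 0.688 by edgeR), and the value was -0.92 without replicate 4.

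Iigp1 (Irga6), the best known effector IRG, had a CPM of 2105, 1809, 2620.4 and 2293 under LPS and of 733, 1221, 969.8 and 3185 under LPS + Tan (log2 fold change -0.53, adjusted p = 0.936, and -1.18 without replicate 4). Replicate 4 was again the highest lung. The effectors Tgtp1 and Tgtp2 (Irgb6 copies that share sequence) had log2 fold changes of -0.49 and -0.46, and of -1.21 and -1.02 without replicate 4. Gm12250, Gbp10, Gbp2b, Gm4841, Gm4951 and Gbp9 lay at -0.44, -0.61, -0.48, -0.47, -0.24 and -0.20 in log2 fold change, Gm5431 and 9930111J21Rik2 at -0.31 and -0.41, and the very large GTPases Gvin1, Gvin2 and Gvin3 at -0.22, -0.34 and -0.86. Without replicate 4 these 11 values were, in the same order, -1.06, -1.30, -1.30, -1.31, -1.04, -0.49, -0.46, -0.41, -0.71, -0.64 and -1.85. None of the genes in this paragraph passed an unadjusted p of 0.05 with all lungs. Gbp8 was the 1 gene above 0, at 71.5, 125, 147 and 112 CPM in the LPS lungs and 56.7, 35.8, 91.9 and 393 CPM in the LPS + Tan lungs, and its log2 fold change went from 0.34 (SE 0.63, adjusted p = 0.982) to -0.89 (SE 0.32, adjusted p = 0.459) without replicate 4. The low-count 9930111J21Rik1 went the other way, with LPS + Tan replicate 4 the lowest of the 8 lungs at 7.46 CPM (log2 fold change -0.57, adjusted p = 0.924, and -0.36 without replicate 4).

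Upstream of these genes is the ligand Ifng. Its CPM was 5.70, 3.55, 6.06 and 5.68 in the LPS lungs and 0.959, 1.42, 1.63 and 13.9 in the LPS + Tan lungs. Thus replicate 4 held more than any LPS lung and the other 3 less than every one. The log2 fold change was -0.23 (SE 0.74, adjusted p = 0.989), and -1.97 (SE 0.27, adjusted p = 0.0782) without replicate 4. Of the 6 tested ligands and inducing cytokines, 0 passed an unadjusted p of 0.05 and 3 did so without replicate 4, with medians of -0.16 and -0.32. The inducing cytokines Il18 and Il12a had the lowest p of the list, at log2 fold changes of -0.24 (SE 0.18) and -0.22 (SE 0.28), and of -0.39 and -0.17 without replicate 4.

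Both chains of the interferon-gamma receptor and the kinase Jak1 had log2 fold changes close to 0. Ifngr1, the ligand-binding chain, lay at 262 to 283 CPM in the LPS lungs and 279 to 291 CPM in the LPS + Tan lungs (log2 fold change 0.05, SE 0.07, adjusted p = 0.978, and 0.04 without replicate 4). Ifngr2, the signalling chain, had a log2 fold change of 0.14 (SE 0.08, adjusted p = 0.924) and Jak1 one of -0.04 (SE 0.08, adjusted p = 0.982), and these were 0.16 and -0.03 without replicate 4. These are the genes through which interferon-gamma is sensed at the cell surface. Of them, Ifngr2 lay at 98.4 to 109.7 CPM in the LPS lungs and at 122.4, 110.5, 111.6 and 108.6 CPM in the LPS + Tan lungs. Its LPS + Tan replicates 1 to 3 thus lay above every LPS lung. Jak2 was at -0.21 (SE 0.10, adjusted p = 0.924), and at -0.30 (SE 0.08, adjusted p = 0.322) without replicate 4. Among 10 receptors and kinases 0 passed with all lungs and 1 without replicate 4, and the medians were 0.0055 and 0.0026. Replicate 4 was the highest lung in 3 of the 10. One of them was Ifnar2, a chain of the type I interferon receptor, named after its values were seen, at 137.5 to 144.2 CPM in the LPS lungs and 128.2, 134.4, 128.0 and 162.1 CPM in the LPS + Tan lungs.

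A list of 9 transcription factors and coactivators of the interferon response (Stat2, Irf1, Irf2, Irf7, Irf8, Irf9, Batf2, Nlrc5 and Ciita) had a log2 fold change below 0 in 9 of 9, with a median of -0.37, and 0 passed an unadjusted p of 0.05. Without replicate 4 the median was -0.54 and 6 of 9 passed, against 4.56% of all genes. Irf1, which drives GBP and IRG transcription, lay at 664, 686, 709 and 735 CPM under LPS and at 289, 415, 385 and 989.8 CPM under LPS + Tan. Its log2 fold change was -0.43 (SE 0.32, adjusted p = 0.938), and -0.95 (SE 0.13, adjusted p = 0.0782) without replicate 4. Stat2 and Nlrc5, the activator of MHC class I genes, had the lowest p of this list with all lungs, at log2 fold changes of -0.24 (SE 0.12) and -0.37 (SE 0.18), and of -0.35 and -0.54 without replicate 4.

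**Figure D3:**
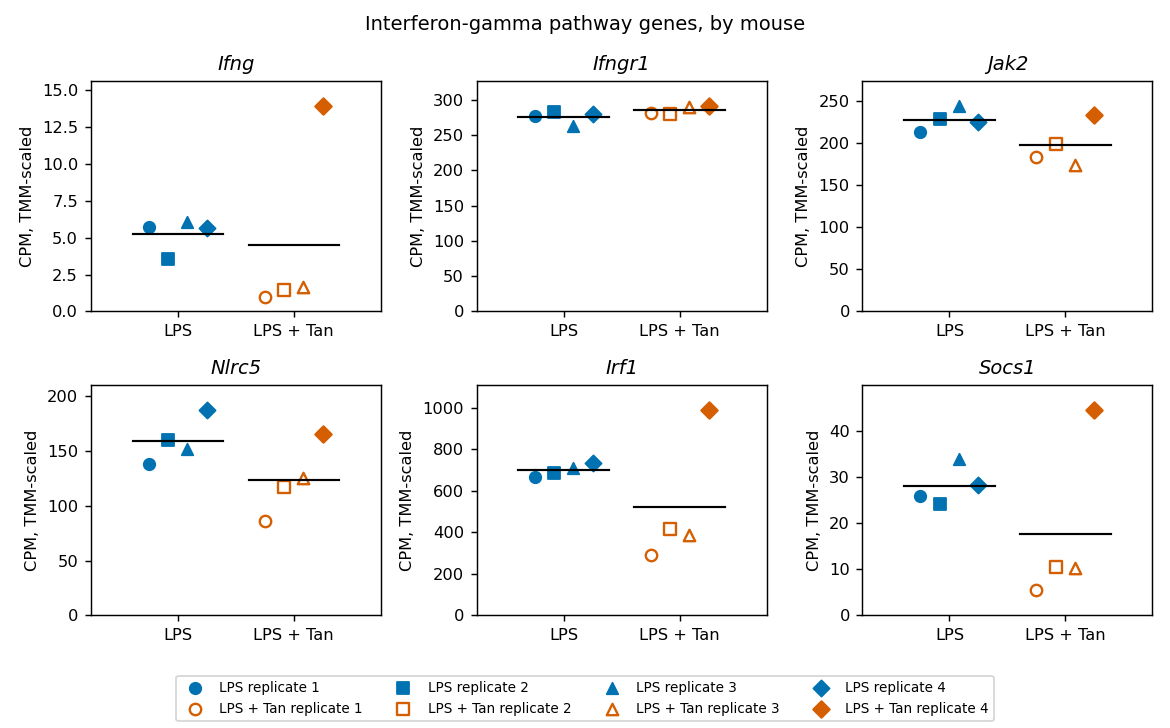
CPM (TMM-scaled) of 6 genes of the interferon response, among them the MHC class I activator Nlrc5 and the feedback brake Socs1, by lung, with each axis starting at 0, filled blue symbols for LPS, orange symbols for LPS + Tan and a black line at each group mean. LPS + Tan replicate 4 (filled diamond) is the highest lung for Ifng, Irf1 and Socs1 while the other LPS + Tan lungs are below all LPS lungs, and the receptor chain Ifngr1 stays between 262 and 291 CPM in all 8 lungs.

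Socs1, the main feedback brake on JAK signalling, lay at 25.8, 24.2, 33.9 and 28.4 CPM in the LPS lungs and at 5.56, 10.5, 10.3 and 44.6 CPM in the LPS + Tan lungs (log2 fold change -0.67, adjusted p = 0.940, and -1.68, adjusted p = 0.0782, without replicate 4). So the feedback gene was highest where the GTPases were highest. Of the 8 brakes, 0 passed an unadjusted p of 0.05 with all lungs. Without replicate 4, 2 were lower (4.56% of all genes) and 1 was higher (761 of 15932 genes). The median was -0.11 both times. The higher one was Ptpn6, a phosphatase, at 0.20 (SE 0.13) with all lungs and 0.29 without replicate 4.

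The 27 other interferon-gamma targets had a median of -0.22, with 26 of 27 below 0. Nos2, the inducible nitric oxide synthase (log2 fold change -0.70, SE 0.26), and Parp14, an ADP-ribosyltransferase (-0.37, SE 0.15), passed an unadjusted p of 0.05 (2.25% of all genes), and lay at -0.92 and -0.55 without replicate 4. Without replicate 4 the median was -0.54, 22 of 27 passed the unadjusted threshold (4.56% of all genes) and 1, the chemokine gene Cxcl10, an adjusted one. Cxcl10, named here after its values were seen, had a CPM of 283, 291, 454 and 345 in the LPS group and of 106, 92.2, 87.6 and 530.5 in the LPS + Tan group (log2 fold change -0.75, adjusted p = 0.936, and -1.85, adjusted p = 0.0456, without replicate 4). The type I interferon-stimulated genes lay nearer to 0, with a median of -0.13 over 21 genes, 19 of them below 0 and 0 past the threshold, and without replicate 4 a median of -0.30 with 7 past it (4.56% of all genes). Oas3 and Isg20, both antiviral, had the lowest p of that list, at -0.22 (SE 0.14) and -0.24 (SE 0.16), and -0.25 and -0.39 without replicate 4. The difference between these lists was not tested, and many genes answer to both kinds of interferon.

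Genes that load and guide the GTPases on membranes, such as the ATG conjugation proteins, farnesyl and geranylgeranyl transferases and galectins, had a median of -0.0225 over 21 genes, and of -0.0589 without replicate 4, where 3 passed lower (4.56% of all genes) and 1 higher (761 of 15932 genes). Lgals8, a galectin that senses broken vacuoles, was the 1 of 21 below an unadjusted p of 0.05, a share near the 2.25% of all genes (log2 fold change -0.24, SE 0.10), followed by Pim1, a kinase that acts on GBPs (-0.27, SE 0.15), and without replicate 4 these were -0.29 and -0.38. Among 10 inflammasome effectors linked to GBPs the median was -0.0360. Ninj1, which ruptures the plasma membrane in lytic death, was the 1 past that threshold (log2 fold change -0.37, SE 0.13, and -0.50 without replicate 4), and 5 of 10 passed without replicate 4 (4.56% of all genes), with a median of -0.0975. Aim2, the cytosolic DNA sensor, was at 0.24 (SE 0.14, adjusted p = 0.926), and at 0.27 without replicate 4.

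The 5 genes outside the GTPase families whose pattern over the 8 lungs lay nearest to the mean of the members were Wars, Cd274, Irf1, Irf8 and Cxcl9. Their root mean square distances on the mean-centred log2 CPM scale were 0.0431, 0.0639, 0.0967, 0.136 and 0.165, against 0.0543 (Gbp3) to 0.412 (Gbp4) for the members themselves. Wars, the tryptophanyl-tRNA synthetase, lay at 924, 970.2, 1002 and 1151 CPM in the LPS lungs and at 383, 569, 522 and 1329 CPM in the LPS + Tan lungs. Gbp4 and Gbp6 (0.384) were the members farthest from the common pattern.

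**Figure D4:**
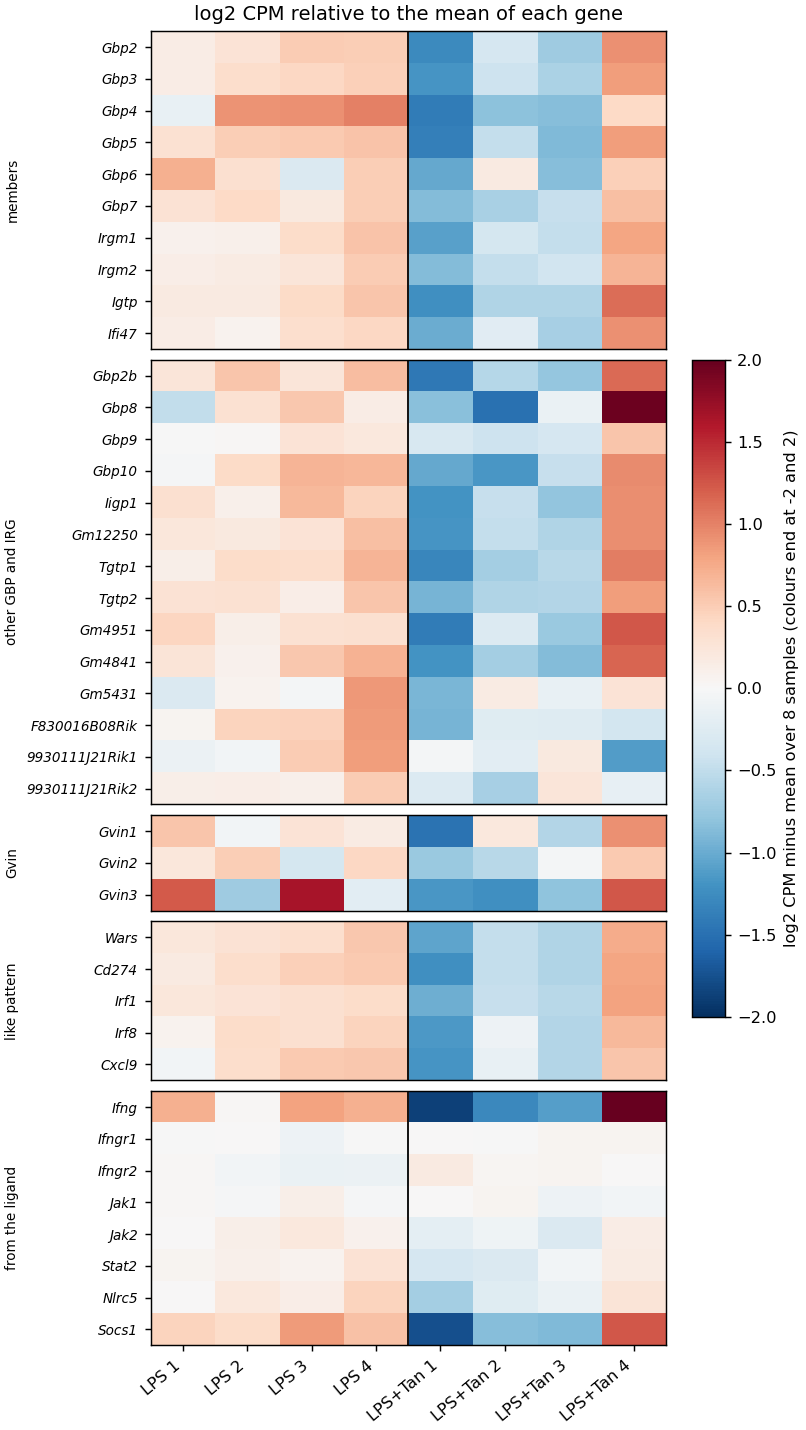
Log2 CPM of each gene minus its mean over the 8 lungs, in columns by lung and in rows for the 10 members, the other GBP and IRG genes, the very large inducible GTPases (Gvin), the 5 genes of the most like pattern (Irf1 among them) and other genes of interferon-gamma signalling. Blue (below the mean) fills the LPS + Tan replicate 1 column of all 10 members and red (above the mean) the replicate 4 column, while the rows of Ifngr1, Ifngr2 and Jak1 stay near white.

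Cell type markers were read beside these values. Summed CPM of 9 T cell markers was 37.9 to 44.1 in the LPS lungs and 33.2 to 58.9 in the LPS + Tan lungs, with replicate 4 the lowest at 33.2. The sum of 9 NK cell markers was 116 to 255 and 93.4 to 289, with 141 in replicate 4, and that of 11 macrophage and monocyte markers was 617 to 882 and 792 to 969, with 836 in replicate 4. Neutrophil markers (9) summed to 3769 to 5397 and 3647 to 5312, with 4916 in replicate 4. T cells and NK cells are the main makers of interferon-gamma. The 10 alveolar epithelial markers, which define the tissue, were all present and summed to 8741 to 12558 and 8514 to 13858, with the highest value in replicate 4. Replicate 4 was also the lowest LPS + Tan lung in the sums of B cell, fibroblast and smooth muscle markers, at 23.5, 1749 and 352 CPM, and the highest in that of airway epithelial markers, at 18091 CPM. Dendritic, endothelial, erythroid and cardiac muscle sums had replicate 4 inside the range of the other LPS + Tan lungs. Over all marker lists, 0 markers were lower in LPS + Tan at an unadjusted p of 0.05, against 353 of all 15706 tested genes, and 3 were higher, against 451 of them. The 3 were Kdr and Tek of 9 endothelial markers and Rgs5 of 6 smooth muscle and pericyte markers. Without replicate 4, 3 were lower (1 each of the alveolar, airway and erythroid lists), against 727 of all 15932 tested genes, and 8 were higher, against 761 of them. The 8 were 2 each of the macrophage, endothelial and smooth muscle lists and 1 each of the T cell and cardiac muscle lists. These marker counts were not tested against the shares of all genes. No marker was at 0 in all libraries, and the dendritic cell markers Xcr1 and Cd209a, both too low to be tested, were at 0 in 1 and 2 of the 8. The part of cell makeup in the GTPase values was not tested.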

How the data were processed

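RNA-seq of 8 mouse lungs was analysed. The authors deposited raw read counts per gene and, for the same genes, FPKM values made from them. The labels' processing notes name GRCm38 and mm10. Nothing names the aligner, counter, annotation or strand setting (not given in the sources used here). Extraction was with TRIzol and libraries with a VAHTS kit per the methods, whereas the labels name a Qiagen column and a SMRTER kit. Samples were grouped by the labels, which do not say more of the origin of each replicate than its group, so p-values measure the spread between these samples. No 2 libraries of a group were repeats (squared deviations 8.61 to 28.2 times sampling noise over 12 pairs).

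The deposited counts entered edgeR 4.0.16 (R 4.3.3) with filterByExpr, TMM factors, a quasi-likelihood test without covariate and Benjamini-Hochberg adjustment over all 15706 tested genes, or 15932 without LPS + Tan replicate 4. CPM is the count scaled to the TMM-adjusted library size. In the text, adjusted p is that of this test unless another is named, and SE is the size of the log2 fold change divided by the square root of F. TMM factors lay between 0.959 and 1.05. FPKM served for levels between genes. DESeq2 1.42.0, limma 3.58.1 (voom, and log2(FPKM + 1) or log2(FPKM + 0.1)), the likelihood ratio test, RLE, upper-quartile and no TMM scaling, no filter, at least 1 CPM in 4 samples, a block for the replicate number and the omission of single samples were alternatives. The scripts were tested on simulated data.

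The members and the gene lists were chosen with earlier results of these data known. Of 257 list entries, 243 were in the table, and the rest were not analysed here. Named genes were all members, the other tested GTPases, the 2 genes of lowest p in each pathway list, 6 genes of interferon-gamma signalling and the 5 genes of nearest pattern. A further gene of the signalling lists is not reported here. Cxcl10, Ifnar2, Xcr1, Cd209a, Kdr, Tek, Rgs5 and the comparison without LPS + Tan replicate 4 with DESeq2 and the likelihood ratio test were added after values were seen. Promoter sequences are from RefSeq, and 23807 of 24584 symbols matched RefSeq (GRCm38.p6). Shared windows were counted in GENCODE transcripts.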

Additional observations from a re-analysis of the deposited data

Results flagged for a closer look

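In groups of 4 lungs, a lung was set aside for a closer look when its gap to the nearest other lung in log2 CPM, divided by the range of the group, was above Dixon's critical value for 4 samples. Of 102 groups (51 genes in each of both treatments) 4 passed, where chance would give about 5.1. Gbp4 had a low value in LPS replicate 1 (ratio 0.902), at 1122 CPM against 2304 to 2492 in the other LPS lungs. Gbp9 had a high value in LPS + Tan replicate 4 (0.915), at 1095 CPM against 561 to 594. The low-count 9930111J21Rik2 had a high value in LPS replicate 4 (0.892), at 3.27 CPM against 2.46 to 2.53, and Ifng a low value in LPS replicate 2 (0.877), at 3.55 CPM against 5.68 to 6.06. On the CPM scale without the log, 16 groups passed, 11 of them through LPS + Tan replicate 4, and 1 of those 11 was a member, Igtp (0.869). Ifng (0.948) and Socs1 (0.875) were also among the 11.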

How the results depend on the processing

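All 10 members kept a log2 fold change below 0 under the 21 alternatives run, and the median over them lay between -1.04 and -0.25. The number past an unadjusted p of 0.05 was 1 with the main settings, 2 with DESeq2, with the likelihood ratio test and with no filter (2.08%, 2.32% and 2.31% of all genes lower), 3 with limma-voom and with limma on log2(FPKM + 1) and log2(FPKM + 0.1) (2.49%, 1.76% and 1.73%), and 7 with the replicate block (2.73%). The labels do not say whether lungs of the same number belong together. Over all tested genes, deviations of such lungs from their group means correlated at -0.153 to 0.132 over 4 pairs, and 1 of 4 correlated best with its own number. A correlation over all genes cannot decide pairing for the members. Their mean-centred log2 CPM was 0.20, 0.33, 0.36 and 0.56 in LPS replicates 1 to 4, and -1.13, -0.42, -0.65 and 0.76 in LPS + Tan replicates 1 to 4. With each lung left out in turn it ranged from 1 to 10, and it was 10 only without LPS + Tan replicate 4. The median was -0.25 without LPS + Tan replicate 1 and -1.03 without replicate 4, where 4.56% of all genes were lower. The number past an adjusted p of 0.05 was 0 in every setting that kept all lungs and in every edgeR quasi-likelihood fit, and was 9 with DESeq2 and 9 with the likelihood ratio test when LPS + Tan replicate 4 was left out, where both gave 10 at an unadjusted p (3.68% and 4.34% of all genes lower). Those 2 settings were chosen after seeing the data. The cause of these differences was not tested. Ifng had few counts, with a lowest count of 39 reads, and the part of depth in its values was not tested.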
